A study of Mus musculus with 7 samples.

Results

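Lone CTCF sites are places where the DNA-binding protein CTCF was found in mouse liver and which the authors classed as lacking cohesin, by Rad21. Other cohesin subunits can still be flagged in this class. The 3446 sites described here are those that carried a CTCF motif, lay on one of the 19 autosomes, shared no base with a peak of the cohesin subunit Rad21 and carried no flag for the cohesin subunit Stag2. They were selected on the deposited class, motif, Stag2 and Rad21 lists, out of 52436 classified CTCF sites, and made up 8.27% of the 41680 autosomal motif sites in the classes compared below. Absence of Rad21 and Stag2 is therefore the definition of these sites and not a result.

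The study profiled CTCF and Rad21 by ChIP-seq in livers of male mice of the outbred strain Crl:CD1(ICR), 8 weeks old and with no treatment named in the labels, with 4 CTCF libraries and 3 Rad21 libraries. Peaks were called on pooled reads of each antibody, so no value per liver was analysed here and every error below covers the number of sites, not variation between mice. The pooled lists held 76683 CTCF peaks and 67369 Rad21 peaks. Stag1, Stag2 and Top2b flags came from public ChIP-seq of mouse liver outside the series.

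CTCF is a zinc finger protein that binds a long, directional motif and blocks contacts between enhancers and promoters. Cohesin, a ring built around Rad21 with either Stag1 or Stag2 as a further subunit, extrudes chromatin loops and is held up where it meets bound CTCF. Rodent genomes also hold many CTCF motifs inside retrotransposon copies, and CpG methylation within the motif can weaken CTCF binding. Top2b, a topoisomerase that relieves torsion in DNA, is often found where both CTCF and cohesin are bound.

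Many of these sites shared part of their motif sequence. The best motif match, 19 bases long, was located in each site from the genome sequence (build mm9). Over motif positions 4 to 15 (counted from 1 at the 5′ end), 1251 sites (36.3%, 95% Wilson interval 34.7 to 37.9%) carried the same 12 bases, CCAGAAGAGGGC. The next commonest string, CCAGCAGAGGGC, was found at 84 sites, or 2.44%. This feature was noticed in the data and is given as a description, without a test. The 8 full motifs most often found among the lone sites without Stag2 are shown because they differ only outside the shared bases, which stand in capitals.

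the most frequent motif: actCCAGAAGAGGGCgcca
the second motif: acaCCAGAAGAGGGCatca
the third motif: aggCCAGAAGAGGGCatca
the fourth motif: aggCCAGAAGAGGGCacca
the fifth motif: gcaCCAGAAGAGGGCatca
the sixth motif: gcaCCAGAAGAGGGCgtca
the seventh motif: acaCCAGAAGAGGGCacca
the eighth motif: acaCCAGAAGAGGGCgtca

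The first of these motifs occurred at 155 motif sites of all classes, and 106 of them (68.4%, 60.7 to 75.2%) were lone sites without Stag2. Of the other copies, 12 were lone sites with Stag2, 17 were other CAC (cohesin-and-CTCF) sites without Stag2, 12 were other CAC sites with Stag2 and 8 were anchors of TADs (topologically associating domains) or of intra-TAD loops. The second motif had 98 of 227 copies among the lone sites without Stag2 (43.2%), and the third only 66 of 470 (14.04%). Motifs with the same 12 bases thus differed in where they fell. Sites of all classes that led with ACT in front of the shared 12 bases were lone without Stag2 in 64.2% of cases (58.2 to 69.8%, 260 sites). The share was 52.9% for GCA (172 sites), 43.7% for ACA (476 sites), 21.7% for ATG (309 sites), 17.6% for AGG (1853 sites) and 17.0% for AGA (300 sites).

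Part of the sites with the shared 12 bases also had related sequence around the motif. All motif sites with the 12 bases were sorted by their 85 flanking bases (25 before and 60 after the motif) into 2 groups, whose consensus sequences are shown here with the motif in capitals. A site of any class was assigned to the nearer consensus where at least 60% of its flanking bases were equal to it. Bases were compared position by position without gaps, so shifted sequence did not count as equal. The 2 consensus sequences share a run of bases after the motif at shifted positions, although only 29.4% of their flanking bases were equal. The consensus with the larger share of lone sites without Stag2 was called flank type 1. The leading 3 motif bases differed in how often they came with it. Of sites of all classes with the shared 12 bases, type 1 was present at 88.8% of those led by ACT, 76.7% for GCA, 70.6% for ACA, 44.7% for ATG, 9.01% for AGG and 8.67% for AGA. Of the 1251 lone sites without Stag2 that had the 12 bases, 641 were of type 1 and 116 of type 2. The remaining 494 were assigned to neither type, with a median identity of 44.7% to the nearer consensus. This median was 29.4% at lone sites without Stag2 that had neither the 12 bases nor a type. Whether the 494 had related flanks at shifted positions was not tested. Among lone sites with Stag2, 494 of the 851 with the 12 bases had neither type.

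flank type 1 consensus: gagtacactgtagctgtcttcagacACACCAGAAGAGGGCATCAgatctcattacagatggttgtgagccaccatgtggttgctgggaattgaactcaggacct
flank type 2 consensus: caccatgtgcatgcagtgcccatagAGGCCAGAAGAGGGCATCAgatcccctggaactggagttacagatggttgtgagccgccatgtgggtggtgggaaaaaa

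In the genome, sites of each type differed from their consensus to different degrees, and common descent was not tested. Shown next, in mm9, are 3 copies of each type with high CTCF scores among the lone sites without Stag2. They lay in introns or between genes and show how far such sites differed from the consensus. They are examples and not a ranking over all copies.

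type 1 at chr5:112157584-112157687 (+ strand): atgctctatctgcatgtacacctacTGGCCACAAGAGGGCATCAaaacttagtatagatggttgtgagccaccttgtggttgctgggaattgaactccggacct
type 1 at chr7:147374662-147374765 (+ strand): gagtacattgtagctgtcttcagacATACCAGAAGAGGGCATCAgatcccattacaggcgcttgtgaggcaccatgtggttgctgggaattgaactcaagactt
type 1 at chr11:23257321-23257424 (+ strand): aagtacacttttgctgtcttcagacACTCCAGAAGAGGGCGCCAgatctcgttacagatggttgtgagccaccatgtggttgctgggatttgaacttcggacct
type 2 at chr6:31788750-31788853 (+ strand): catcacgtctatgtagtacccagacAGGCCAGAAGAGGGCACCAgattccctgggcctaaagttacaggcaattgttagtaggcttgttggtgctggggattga
type 2 at chr11:55187532-55187635 (+ strand): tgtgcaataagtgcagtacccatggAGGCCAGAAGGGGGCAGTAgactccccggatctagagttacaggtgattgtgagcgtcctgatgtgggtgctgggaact
type 2 at chr8:40521175-40521278 (− strand): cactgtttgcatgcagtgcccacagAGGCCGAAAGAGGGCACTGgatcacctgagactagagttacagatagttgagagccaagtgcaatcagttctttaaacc

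Of the type 1 copies shown, the strongest, between genes on chromosome 5, had a CTCF score of 1825 and 74.1% of flanking bases equal to its consensus. The copy on chromosome 7, 12521 bp from the start of the olfactory receptor gene Olfr523, had a score of 1752 with 90.6% identity. That in an intron of Usp34, which encodes a ubiquitin-specific protease, had a score of 1328 with 91.8% identity. Of the type 2 copies, one lay in an intron of the annotated gene Gm13849 (score 1594, identity 67.1%), one 25532 bp from the start of Sparc, a matrix protein gene (score 1566, identity 60.0%), and one between genes on chromosome 8 (score 1430, identity 67.1%). None of these 6 copies carried a Stag1 or Top2b flag.

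Flank type 1 was present at 762 of the 3446 lone sites without Stag2 (22.1%, 20.8 to 23.5%). It was present at 7.75% of the 3470 lone sites with Stag2, at 12.3% of the 840 other CAC sites without Stag2, at 2.17% of the 19224 other CAC sites with Stag2 and at 1.19% of the 14700 anchors. Seen from the sequence, 1726 motif sites had flank type 1, and 44.1% of them were lone without Stag2 (41.8 to 46.5%), whereas 10.1% were anchors. Flank type 2 was present at 7.57% of lone sites without Stag2 and 8.13% of those with Stag2 (difference −0.553 percentage points, 95% Newcombe interval −1.82 to 0.717), and 16.8% of its 1549 sites were lone without Stag2. The difference in flank type 1 from lone sites with Stag2 was 14.4 percentage points (12.7 to 16.01) and was positive on 19 of 19 chromosomes. For the shared 12 bases it was 11.8 points (9.62 to 13.9), likewise on 19 of 19. From other CAC sites without Stag2 the difference in flank type 1 was 9.85 points, and 5.60 points at matched CTCF score.

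**Figure D1:**
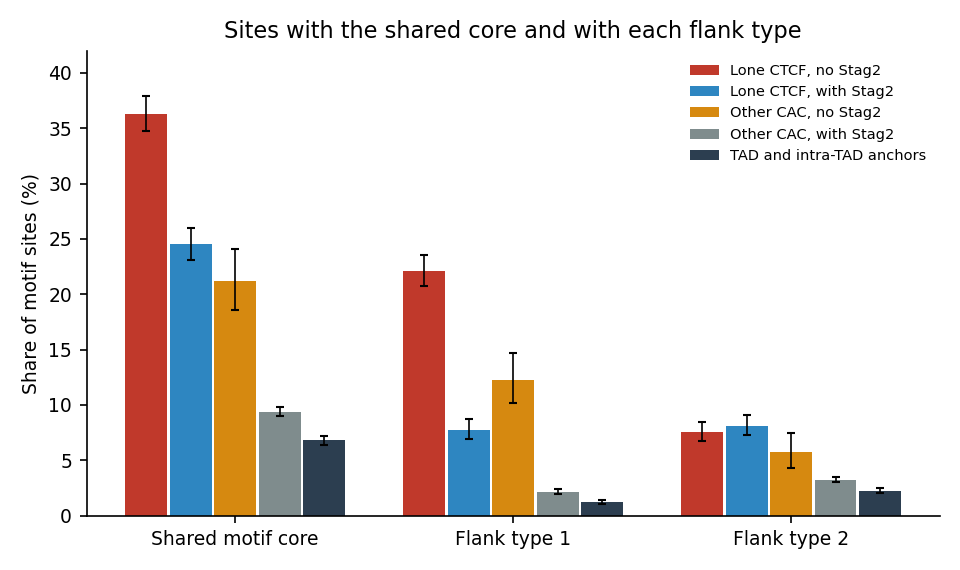
Bars give the share of motif sites (%, axis from 0) with the shared motif core, flank type 1 and flank type 2 in each of 5 classes, and error bars are 95% Wilson intervals. Lone sites without Stag2 had the highest share of the shared core (36.3%) and of flank type 1 (22.1%), while for flank type 2 their interval overlapped that of lone sites with Stag2.

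Type 1 copies among the lone sites without Stag2 were closer to the consensus than those elsewhere in the lone class. With the shared 12 bases their median flanking identity was 89.4%, against 77.6% at the corresponding lone sites with Stag2 and 90.6% at other CAC sites without Stag2. The consensus was formed from sites of all classes with the 12 bases. Of type 1 sites, 44.1% were lone without Stag2 and 15.6% lone with Stag2. How far this bears on closeness to the consensus was not tested. The authors kept only reads with a unique position in the genome, and the part of sequence identity in the Stag2 and Rad21 calls was not tested. No library of repeats was compared with the flanks, and no repeat family is assigned to them.

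The same features were then examined on chromosome X, which the selection leaves out. Among X-linked lone motif sites without a Rad21 peak, flank type 1 was present at 17 of the sites without Stag2 (16.8%, 10.8 to 25.3%) and at 11 of 130 with Stag2 (8.46%, 4.79 to 14.5%). The difference of 8.37 percentage points (−0.189 to 17.6) did not pass the two-sided Fisher exact test (p = 0.0673, adjusted p = 0.202 over 3 features). The shared 12 bases were at 28.7 and 26.2% (Fisher exact p = 0.766, adjusted p = 1), a difference of 2.56 points with an interval of −8.81 to 14.2.

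Information content, which is 0 bits at a position where all bases are equally frequent and 2 bits where every site has the same base, was summed over the 30 bases after the motif (positions 20 to 49). It was 4.47 bits at lone sites without Stag2, 2.44 bits at those with Stag2, 1.90 bits at other CAC sites without Stag2, 0.767 bits at other CAC sites with Stag2 and 0.883 bits at anchors. Leaving out the sites with the shared 12 bases or a flank type lowers this sum by construction, because those sites were grouped on their flanking bases. The sum was then 0.483 bits at the remaining 1929 lone sites without Stag2 and 0.536 bits at the remaining 2425 with Stag2. Of the lone sites without Stag2, 24.3% had a 19-base motif present at 20 or more sites of the list, against 15.3% of lone sites with Stag2, 14.3% of other CAC sites without Stag2 and 4.01% of anchors. A motif found at no other site was present at 53.5% of the lone sites without Stag2 and 64.8% of those with Stag2.

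**Figure D2:**
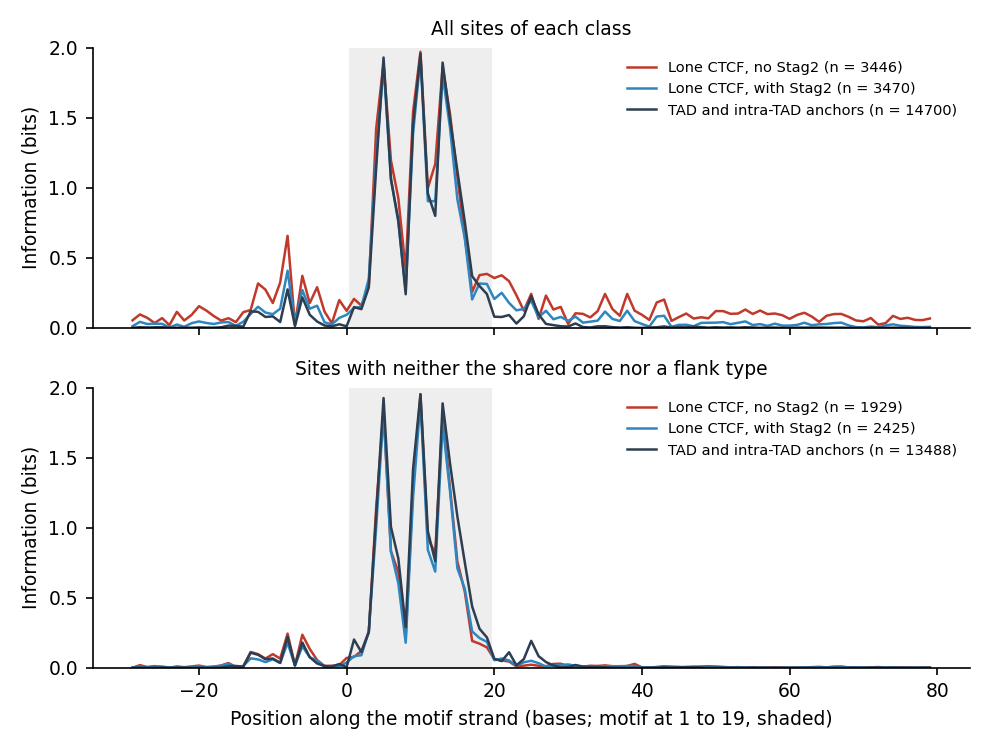
Lines give the information content (bits) at each position along the motif strand for lone sites without Stag2, lone sites with Stag2 and anchors, with the motif shaded, for all sites (top) and for sites with neither the shared core nor a flank type (bottom). Downstream of the motif the line of lone sites without Stag2 is the highest in the top panel (sum over positions 20 to 49 of 4.47 bits). In the bottom panel, which leaves out sites grouped on these same flanks, the sum is 0.483 bits.

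CTCF binding at these sites was weak within the range of the list. The deposited CTCF score, 10 times the −log10 of the peak's q-value, had a median of 244.5 (quartiles 169 and 387, range 38 to 5379). Lone sites with Stag2 had a median of 295, other CAC sites without Stag2 404, other CAC sites with Stag2 903 and anchors 2824.5. Peak strength was part of how the authors picked anchors, since the intra-TAD anchors were scored by it and the TAD anchors had to be present in every liver. In fragments at the summit, recovered from the deposited fold and p-value, the medians were 54, 60, 78.0, 132 and 319. The size of each difference is given as the AUC, the probability that a lone site without Stag2 exceeds a site of the other class, which is 0.5 where they do not differ. Against lone sites with Stag2 it was 0.423 (95% interval 0.409 to 0.436, two-sided Kolmogorov-Smirnov adjusted p = 2.58e-22, n = 3446 and 3470 sites), and the median was higher without Stag2 on 0 of 19 chromosomes. Against other CAC sites without Stag2 the AUC was 0.302 (0.281 to 0.324, adjusted p = 6.5e-46, n = 3446 and 840 sites), with a higher median on 0 of 19 chromosomes. The lowest score in the other CAC class was 129, and at scores of at least 130 in both groups the AUC was 0.344. Sites are not independent samples of livers, and with lists of this size small differences pass the test, so the AUC and its interval are the values to read.

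**Figure D3:**
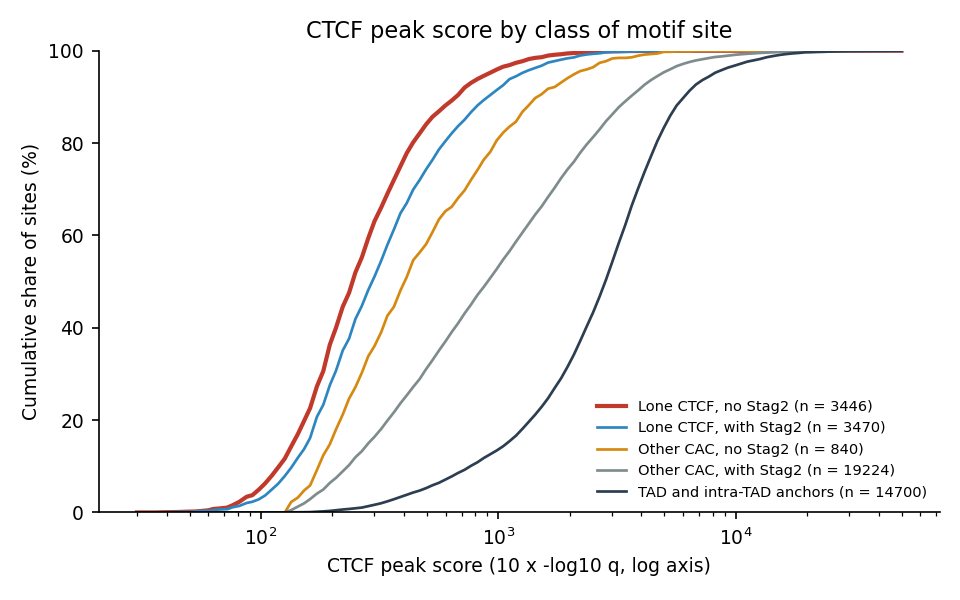
Lines give the cumulative share of motif sites (%) at or below each CTCF peak score (log axis) in 5 classes. The line of lone sites without Stag2 lies farthest left, with a median of 244.5, next to lone sites with Stag2 at 295, and anchors lie farthest right with a median of 2824.5.

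Weak binding was not the rule for every site. Of the lone sites without Stag2, 134 (3.89%) had a CTCF score of at least 1000, and 419 (12.2%) had a score under 130. The 10 with the highest scores are shown here, with the motif in capitals and 5 bases on each side. They were chosen as the most strongly bound of the lone sites without Stag2. Coordinates are of the motif in mm9.

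Kcnj11, chr7:53356169-53356187 (+): agcctCCGCCGCCAGAGGGCGCCAgatcg
Gm17434, chr5:22753022-22753040 (−): cacggAGGCCAGCAGAGGGCACTGagttc
1700017G19Rik, chr3:40424462-40424480 (−): tgaagCGACCAGAAGAGGGCATCCggtcc
Elavl4, chr4:110024551-110024569 (+): cgccgCCGCCTCTAGGGGGCGCTTgacgt
Rbl2, chr8:93603760-93603778 (+): ggaggAGGTCAGAAGGGGGCATCGgatat
Kap, chr6:133762544-133762562 (−): gtgtgTAGCCACTAGAGGGCAGACcttca
Arrdc4, chr7:75725725-75725743 (−): gggatCCACCCCTAGGGGGCAGTGaatag
Ins2, chr7:149906830-149906848 (+): cgagtTGAACAGCAGAGGGAGACAgaggt
Pde11a, chr2:76054406-76054424 (+): agaagTGGCCACCAGGGGCAGTGTattgc
2700050L05Rik, chr7:140824324-140824342 (+): gggaaCTGCCTCTGGAGGTCACTGtccta

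None of these 10 sites had either flank type or a Stag1 or Top2b flag, and 1 of them, nearest to 1700017G19Rik, had the shared 12 bases. The strongest lay 539 bp from the start of Kcnj11, which encodes a subunit of the ATP-sensitive potassium channel, with 592 fragments at its summit, a CTCF score of 5379 and a Rad21 peak 4050 bp away. The site in the untranslated region of Elavl4, a neuronal RNA-binding protein gene, lay 12 bp from its start, with a score of 3329 and its nearest Rad21 peak 142220 bp away. A site 958 bp from the start of Pde11a, a phosphodiesterase gene, had a score of 2505 in spite of a motif score of only 8.92. The site nearest to Ins2, an insulin gene, was 21382 bp from its start and had a score of 2618. In an exon of a non-coding transcript of Rbl2, a gene of the retinoblastoma family, the score was 3024. The other sites of this set lay between genes, with scores of 2408 to 4016. The site nearest to Arrdc4 had a Rad21 peak 564 bp away and an anchor 1035 bp away, the shortest distances of the set.

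Motif scores were higher at lone sites without Stag2 than in either comparison class, slightly so over all sites and more so at matched CTCF score. The deposited motif score, a log-odds score of the best match to the JASPAR CTCF matrix, had a median of 15.5 (quartiles 13.1 and 17.9, range 7.77 to 27.1) at lone sites without Stag2. It was 15.3 at lone sites with Stag2 (AUC = 0.528, 0.514 to 0.541, adjusted p = 1.24e-05, n = 3446 and 3470 sites, median higher on 11 of 19 chromosomes). It was 14.98 at other CAC sites without Stag2 (AUC = 0.538, 0.517 to 0.560, adjusted p = 9.31e-05, n = 3446 and 840 sites), but without sites within 1 kb of a gene start this AUC was 0.507 and did not pass the test. At matched CTCF score the AUC was 0.550 against lone sites with Stag2 and 0.601 against other CAC sites without Stag2. Anchors had a median of 17.8, and the intra-TAD anchors among them were chosen by the authors with a score that includes the motif score. The best matches among the lone sites without Stag2 are shown next with their positions.

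Crmp1, chr5:37682404-37682422 (−): tggagCGGCCACCAGGGGGCGCCAcaatg
Pdpn, chr4:142848683-142848701 (+): ttcggCGGCCACCAGGGGGCGGTAgtcgg
Tmem132c, chr5:127414043-127414061 (−): agtgcTGACCACTAGGGGGCGCTGcactt
Lingo2, chr4:37392486-37392504 (+): aagctTGACCAGCAGGGGGCACTAtgaac

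A near-perfect match did not go with a strong peak in most of these cases. The best motif, with a score of 27.1 in a coding exon of the neuronal gene Crmp1, had a CTCF score of 327 and 100 fragments at its summit. The site nearest to Pdpn, the podoplanin gene, had a motif score of 26.5 and a CTCF score of 1198. The sites nearest to Tmem132c and Lingo2, 308037 and 493746 bp from the starts of those genes, had CTCF scores of 285 and 258 with motif scores of 25.5 and 25.2. The other site of the 5 with the highest motif scores, for which no sequence is shown, lay between genes on chromosome 18, 537554 bp from the nearest start. It had a CTCF score of 267, and it was the only one of the 5 with a Stag1 flag.

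At least 1 CpG dinucleotide lay within the motif at 41.1% of lone sites without Stag2 (39.5 to 42.8%). This was 8.50 percentage points more than at lone sites with Stag2 (6.23 to 10.8, Fisher exact adjusted p = 5.17e-13, higher on 18 of 19 chromosomes). The difference from other CAC sites without Stag2 was −8.73 points (−12.5 to −4.98, Fisher exact adjusted p = 7.91e-06), and without sites within 1 kb of a gene start the difference was −3.69 points and did not pass the test. At motif positions 15 and 16, 33.4% of the lone sites without Stag2 had a CpG, against 24.0% of those with Stag2. The share was 36.7% at other CAC sites without Stag2, 30.8% at other CAC sites with Stag2 and 34.2% at anchors. As a description, lone sites without Stag2 that had a motif CpG had a median CTCF score of 258 (AUC = 0.535, 0.516 to 0.555, against those without a CpG). Within flank type 1 the AUC was 0.501 (0.459 to 0.543).

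The second cohesin subunit of this kind, Stag1, was flagged at 220 of the 3446 sites (6.38%, 5.62 to 7.25%), and Top2b at 40 (1.16%, 0.854 to 1.58%). Both flags stood at 7 sites, and 3193 sites (92.7%) had neither. At lone sites with Stag2, Stag1 was flagged at 39.4%, so that lone sites without Stag2 differed by −33.0 percentage points (−34.8 to −31.2, Fisher exact adjusted p = 7.66e-253). Top2b was flagged at 9.39% of them (difference −8.23 points, −9.30 to −7.22, Fisher exact adjusted p = 1.55e-58). Either flag had a higher share at lone sites without Stag2 on 0 of 19 chromosomes. At other CAC sites without Stag2, where Rad21 was bound, Stag1 was flagged at 17.7% (difference −11.4 points, −14.2 to −8.77, Fisher exact adjusted p = 1.07e-21) and Top2b at 9.29% (difference −8.12 points, −10.3 to −6.30, adjusted p = 2.45e-28). The Stag1 and Stag2 lists are separate immunoprecipitations that the authors took from public data, and whether they share input or depth was not examined here.

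The low Stag1 share was not limited to the weakest sites. When lone and other CAC sites were divided by CTCF score, 5.40% of lone sites without Stag2 in the lowest range (scores 38 to 161) carried Stag1, and 7.97% in the highest range (511 to 6111). Lone sites with Stag2 had shares of 31.7 and 45.7% in the same ranges. For Top2b the shares at lone sites without Stag2 were 0.643% in the lowest range and 2.09% in the highest, against 13.95 and 10.3% at those with Stag2. Flank type 1 was present at 31.9% of lone sites without Stag2 in the lowest range and at 11.01% in the highest, and at lone sites with Stag2 the shares were 7.87 and 5.08%. Other CAC sites without Stag2 had shares of 14.3 and 5.29% in these ranges. The lowest range held only 49 of them (interval 7.10 to 26.7%). None of these scored under 130, so the classes are not alike within that range. In the 3 ranges between, the shares at other CAC sites without Stag2 were 19.4, 17.7 and 15.5%. Their intervals overlapped those of lone sites without Stag2, at 23.1, 21.6 and 18.9%.

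**Figure D4:**
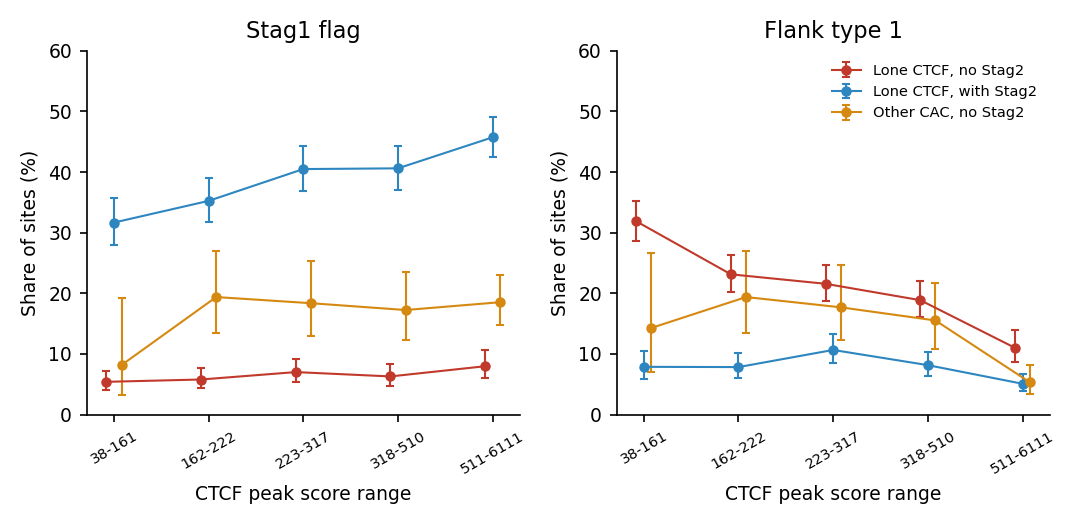
Points give the share of sites (%) with a Stag1 flag (left) and with flank type 1 (right) in 5 ranges of CTCF peak score for lone sites without Stag2, lone sites with Stag2 and other CAC sites without Stag2, and error bars are 95% Wilson intervals. In every range lone sites without Stag2 had the lowest Stag1 share of the 3 classes, from 5.40 to 7.97%, and their share with flank type 1 was 31.9% in the lowest range and 11.01% in the highest.

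Within the lone sites without Stag2, copies of flank type 1 differed from the 1929 sites with neither the shared 12 bases nor a flank type. Since these groups were formed after the sequences had been seen, the values are a description. Copies of flank type 1 had a median CTCF score of 207.5 against 248 (AUC = 0.410, 0.387 to 0.433) and a higher motif score, with medians of 15.6 and 14.7 (AUC = 0.586, 0.561 to 0.610). Stag1 was flagged at 14 of the 762 copies (1.84%), and at 158 of the 1929 other sites (8.19%). The CTCF summit lay a median of 18 bp from the motif centre toward the 3′ end of the motif at type 1 copies (AUC = 0.624, 0.5995 to 0.648, against the other sites). A motif CpG was present at 41.5% of type 1 copies and 41.4% of the other sites (difference 0.101 points, −3.99 to 4.25). Type 1 copies were fewer among strong peaks, with 5.22% of the 134 sites of score 1000 or more and 32.2% of the 419 sites of score under 130.

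The summit was near the motif in most of the lone sites without Stag2. It lay within 50 bp of the motif centre at 82.4% of them (81.0 to 83.6%), at 82.4% of lone sites with Stag2, at 79.5% of other CAC sites without Stag2, at 74.1% of those with Stag2 and at 92.5% of anchors. Along the motif strand the median offset was 0 bp (quartiles −20 and 25), against −3 bp at lone sites with Stag2 (AUC = 0.529, 0.515 to 0.542, adjusted p = 3.23e-05, n = 3446 and 3470 sites) and −3 bp at other CAC sites without Stag2 (AUC = 0.532, 0.510 to 0.553, adjusted p = 0.00858). Without sites that had the shared 12 bases or a flank type, the first AUC was 0.507 and did not pass the test. Peaks were 344 bp wide in the median, narrower than at lone sites with Stag2 (360 bp, AUC = 0.438, 0.425 to 0.452, adjusted p = 8.58e-14, n = 3446 and 3470 sites) and at other CAC sites without Stag2 (404 bp, AUC = 0.290, 0.269 to 0.311, adjusted p = 1.6e-60). At matched CTCF score these AUC values were 0.469 and 0.353. GC content over the summit and 100 bases on each side had a median of 45.8%, against 46.8% at lone sites with Stag2 (AUC = 0.459, 0.445 to 0.472, adjusted p = 1.45e-07, n = 3446 and 3470 sites) and 48.8% at other CAC sites without Stag2 (AUC = 0.390, 0.368 to 0.412, adjusted p = 1.39e-20). The first of these GC differences did not pass the test without the shared sequences (AUC 0.497) or over 50 bases on each side of the summit (AUC 0.488), and without sites within 1 kb of a gene start the second had an AUC of 0.433.

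Most of the sites were far from gene starts. In the GENCODE vM1 annotation, 1811 (52.6%, 50.9 to 54.2%) lay in introns, 1390 (40.3%) between genes, 118 (3.42%) in coding exons, 79 (2.29%) in untranslated regions and 48 (1.39%) in non-coding exons. Lone sites with Stag2 had similar shares, with 51.96% in introns and 40.06% between genes. Other CAC sites without Stag2 had 47.3 and 39.8%. The median distance to the nearest start of a protein-coding gene was 15032 bp. It was 14748.5 bp at lone sites with Stag2 and 12588.5 bp at other CAC sites without Stag2. Within 1 kb of such a start lay 264 sites (7.66%, 6.82 to 8.60%), a difference of −2.17 percentage points from lone sites with Stag2 (−3.50 to −0.835, Fisher exact adjusted p = 0.00189) and of −9.84 points from other CAC sites without Stag2 (−12.7 to −7.24, adjusted p = 1.14e-15). The first difference was −1.37 points where no Rad21 peak lay within 1 kb, and −1.06 points without the shared sequences, where it did not pass the test. Sites within 1 kb of a start more often had a motif CpG (63.3%) than those farther away (39.3%), and 5.30% carried Top2b against 0.817%.

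The 5 strongest sites within 1 kb of a start were those near Kcnj11, Elavl4 and Pde11a, already described, and those near Nprl3 and Acrbp. The site in a non-coding exon of Nprl3, a regulator of mTORC1 signalling, lay 824 bp from its start at chr11:32136999-32137417, with a CTCF score of 1611 and a Rad21 peak 983 bp away. The site in a coding exon of Acrbp, a gene for a protein of the sperm acrosome, lay 419 bp from its start at chr6:125001228-125001632, with the same score and a Rad21 peak 4067 bp away.

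Cohesin peaks were common in the neighbourhood, as they were at lone sites with Stag2. The gap to the nearest Rad21 peak had a median of 7034 bp (quartiles 2369 and 18906), and 12.04% of the sites had one within 1 kb and 59.7% within 10 kb. At lone sites with Stag2, which obey the same Rad21 rule, these shares were 12.1 and 55.6%. Their median gap was 8022 bp (AUC = 0.479, 0.465 to 0.492, two-sided Kolmogorov-Smirnov adjusted p = 0.00236, n = 3446 and 3470 sites). Without the shared sequences that AUC was 0.488 and did not pass the test. The nearest TAD or intra-TAD anchor was a median of 35372 bp away, against 42278 bp at lone sites with Stag2 (AUC = 0.468, 0.454 to 0.481, adjusted p = 7.18e-06, n = 3446 and 3470 sites) and 32133 bp at other CAC sites without Stag2 (AUC = 0.521, 0.499 to 0.542, adjusted p = 0.255). The last AUC did not pass the test and was 0.492 without sites within 1 kb of a gene start, but it was 0.532 at matched CTCF score, where it passed. An anchor lay within 10 kb of 20.9% of the lone sites without Stag2 and of 16.1% of those with Stag2. The share was 24.0% at other CAC sites without Stag2 and 14.3% at those with Stag2. From a lone site without Stag2, the next such site was a median of 129176 bp away, and 260 of these sites (7.54%) had another within 10 kb. Their motifs lay on the + strand at 51.2% of sites (49.5 to 52.9%).

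The sites next to the Rad21 rule are given as a description. Of the sites that met every other condition, the 3 nearest to a Rad21 peak had gaps of 2, 20 and 26 bp and CTCF scores of 127, 109 and 137, in an intron of the ubiquitin ligase gene Nedd4 and between genes 5986 bp from the start of Gm5045 and 113129 bp from that of Klf9. The 3 with the smallest overlap shared 13, 36 and 49 bp with a Rad21 peak and had scores of 94, 93 and 48, near Smagp and Nnt and in an intron of Cux1. All of the 70 sites that failed only the Rad21 rule had scores between 43 and 129, with a median of 97. The lowest score in the other CAC class was 129, and how the classing of sites with Rad21 bears on the low scores of these 70 was not tested. The weakest sites inside the rule, in a coding exon of Tcf7l2 and in introns of Srp72 and Pole4, had scores of 38, 40 and 43, and 20, 22 and 21 fragments at the summit.

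Per megabase, the sites were most frequent on chromosome 11, with 2.32 (283 sites), and on chromosome 5, with 2.12 (323 sites). The lowest density was 0.909 on chromosome 3 (145 sites). Relative to all motif sites, the share was between 6.70% on chromosome 1 and 10.7% on chromosome 5. It was 8.87% on chromosome 11, near the 8.27% over all autosomes.

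Genes of 6 lists were examined for a lone site without Stag2 within 10 kb of a start. Over all 30590 autosomal genes other than pseudogenes, 2017 had one (6.59%). Of 18 genes of the CTCF and cohesin machinery, 5 did (27.8%, 12.5 to 50.9%). The count was 3 of 25 for hepatocyte secreted proteins, 2 of 24 for hepatocyte transcription factors, 2 of 15 for the urea cycle and gluconeogenesis, 2 of 81 for cytochrome P450 genes and 0 of 34 for imprinted genes (interval 0 to 10.2%). Counts this small leave wide intervals, and nothing particular to any list is read from them.

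Among the machinery genes, the nearest sites lay 228 bp from the start of Top2a, a topoisomerase of dividing cells (score 146), and 835 bp from that of Smc3, a core subunit of the cohesin ring (score 331). Both lay in introns of these genes and had flank type 1. Ctcf itself had a site in an intron 2068 bp from its start, with a score of 94, and Ctcfl, its germline paralogue, had one at 5529 bp with a score of 467. A site in an intron of Stag1, 8675 bp from its start, had a score of 170. That gene and Prox1 were beyond the 12 nearest genes fixed for naming and are named to complete the counts.

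Of the hepatocyte genes, Tat, which encodes the tyrosine-degrading enzyme tyrosine aminotransferase, had the strongest of these sites, with a CTCF score of 1336 at 1036 bp from its start, a motif score of only 7.90 and a Rad21 peak 2379 bp away. Ppargc1a, a coactivator of gluconeogenic genes, had one in an intron at 1902 bp (score 334), and Rxra, a nuclear receptor gene, at 2070 bp (score 141). The genes of secreted proteins were Serpinc1, for antithrombin, at 3200 bp (score 269, flank type 1), Apob, for the apolipoprotein of VLDL and LDL, at 6045 bp in a coding exon (score 91), and F2, for prothrombin, at 6486 bp (score 137). The cytochrome P450 genes were Cyp2d22 at 4531 bp (score 163) and Cyp2t4 at 7256 bp (score 213). Prox1, a regulator of hepatocyte identity, had a site at 8471 bp with a score of 333. No site of these gene lists carried Stag1 or Top2b.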

How the data were processed

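CTCF ChIP-seq from 4 livers and Rad21 ChIP-seq from 3 livers of male Crl:CD1(ICR) mice were analysed from pooled lists. Per the study's methods, the authors mapped reads to mm9 with Bowtie2, kept unique reads and called peaks with MACS2 per antibody on merged reads. The deposited score of a peak is 10 times the −log10 of its q-value. The deposited fold is the ratio of fragments at the summit to local background, with the same constant added to both. Beside it stand −log10 p-values and q-values. The class list, made by the authors from CTCF peaks found in at least 2 livers, gives the deposited motif score and flags for Stag1, Stag2 and Top2b. Columns of the flags carry no names, and they were read in the sequence given by the supplement of the study. The pooled lists carry no depth per library, and the depth stated in the study's methods was not used here. Fragments at the summit were recovered from the fold and −log10 p, and 99.993% came out whole within 0.05.

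All 22 chromosome names matched the reference NCBIM37 (mm9), and 0 peaks passed a chromosome end. The best motif was located with the JASPAR CTCF matrix (pseudocount 0.1) at 41750 sites. The score found was within 0.0576 of the deposited score at every site, and strands were equal at 99.988%. Classes were compared by two-sided Kolmogorov-Smirnov tests (large-sample p) with the AUC and its Hanley-McNeil interval, or by two-sided Fisher exact tests with Newcombe intervals. The Benjamini-Hochberg family held 21 tests. Intervals are at 95% and cover counting error over sites only. The matched alternatives used 10 bins of CTCF score. Statistics were tested on simulated data.

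Regions named were the 10 strongest, 5 with the best motif, 3 weakest, 3 on each side of the Rad21 rule and 5 strongest within 1 kb of a start. Genes named were the 12 nearest of 6 lists. The sites, gene lists and rules were chosen with earlier results of these data known, and the shared 12 bases and flank types after the sequences had been seen. Work was done in Python 3.11.15 with NumPy 2.4.6, SciPy 1.17.1, pandas 2.3.3, pysam 0.24.0, Matplotlib 3.10.9 and samtools 1.23.1.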

Additional observations from a re-analysis of the deposited data

How the results depend on the processing

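Of 191 alternative values for 27 differences, 180 kept their direction and their side of the threshold, or for the sequence features stayed within the interval of the reported value, and 1 reversed. The CTCF score, Stag1 and Top2b differences kept both under every alternative run. Against lone sites with Stag2, leaving out sites with the shared 12 bases or a flank type (chosen after seeing the data) took 4 differences below the threshold. These were GC content (AUC 0.497), summit offset (0.507), distance to a Rad21 peak (0.488) and promoter share (−1.06 points). A window of 50 bases on each side of the summit did the same for GC content (AUC 0.488). Against other CAC sites without Stag2, leaving out sites within 1 kb of a start did so for motif score (AUC 0.507) and motif CpG share (−3.69 points). The distance to an anchor passed the threshold in that comparison at matched CTCF score (AUC 0.532) and when lone sites with a Rad21 peak within 1 kb were left out (0.535). The latter removes no CAC site, as all 840 have such a peak, so nothing is read from it. The same AUC changed direction, with no test passed on either side, without sites within 1 kb of a start (0.492). Matching on CTCF score moved the motif score further from 0.5 and the peak width nearer to it. At matched CTCF score the difference in flank type 1 from these CAC sites was 5.60 points, against 9.85. The causes were not tested.

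No paired analysis was possible because the lists pool the libraries of each antibody, and leaving out a replicate was not run for the same reason. The share of sites in annotated repeats was not run, since the reference used here is not repeat-masked.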
